A study of Rattus norvegicus with 18 samples.

Results

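Hearts of spontaneously hypertensive rats given QDG were compared with hearts of Wistar Kyoto rats by small RNA sequencing, using 12 of the 18 libraries of the series. The spontaneously hypertensive rat (SHR) is an inbred strain that develops high blood pressure without surgery or drugs, and the Wistar Kyoto rat (WKY) is the strain commonly kept as its normotensive control. The 6 libraries called QDG below come from SHR labelled as receiving that treatment, and the 6 WKY libraries carry the label Normal. The remaining 6 libraries come from SHR labelled Hypertension, and their values are set beside the comparison. Per the design text, SHR were given NS or QDG, and each group had 6 rats; neither name is spelled out, and dose, duration, age and sex were not given in the sources used here. The labels name no transgene or deletion in any group, and all libraries are from bulk heart tissue. The comparison covers 410 of 599 listed rat miRNAs, those with at least 1 RPM, a read count scaled per 1000000, in at least 6 of the 18 libraries. Strain, blood pressure, QDG and any handling that followed group cannot be told apart between QDG and WKY, because they change together. The labels do not tie each library to a rat, so the p-values measure the spread between libraries, part of which may be technical.

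Depth was similar, with 6465025 to 9463554 miRNA reads per library in WKY and 6805472 to 8574447 in QDG (exact permutation p = 0.892, two-sided). The labelled tissue was checked against its markers. The 5 heart muscle miRNAs (miR-1-3p, miR-1b, miR-133a-3p, miR-208a-3p and miR-499-5p) together summed to 499311 to 620053 RPM in WKY and 487141 to 575174 RPM in QDG. Liver's miR-122-5p lay at 0.610 to 18.02 and 2.88 to 17.5 RPM. Sums for red blood cell markers (miR-144-3p, miR-451-5p) ran from 311 to 867 RPM in WKY and from 547 to 948 RPM in QDG, and those for 4 leukocyte markers from 1066 to 1530.2 and 1149 to 1385 RPM. No marker on these lists was at 0 throughout a group. WKY1 and QDG4 held the most outlying values among the 12 libraries, and leaving both out ended 14 of the calls described below, and these are named there.

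MicroRNAs are short RNAs cut from hairpin precursors, and the product of either arm, 5p or 3p, can be loaded into the silencing complex. Their seed, bases 2 to 8 from the 5′ end, pairs with sites in messenger RNAs, which are then repressed, so miRNAs with the same seed can reach overlapping messages. In the heart, miR-1 and miR-133 restrain growth of muscle cells, miR-208 and miR-499 are encoded inside myosin genes, and miR-21 and miR-29 are studied for their part in scarring.

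Sequences of the miRNAs that carried the comparison are shown with the seed in capitals, from RefSeq on GRCr8, which held 372 of the 410 miRNAs. The first set is the muscle miR-1 pair, whose members share a seed and differ at 1 base, A17G (base of miR-1b first, position counted from its 5′ end). RefSeq places miR-1b at chr3:187864736-187864757 on the plus strand and miR-1-3p at chr18:2160339-2160360 on the minus strand, inside Mib1.
miR-1b: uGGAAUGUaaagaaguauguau
miR-1-3p: uGGAAUGUaaagaaguguguau
The second set is the miR-34 family, a single seed on transcripts from 2 chromosomes, whose members moved in opposite directions. miR-34a-5p lies at chr5:165815971-165815992 (plus strand), and miR-34b-5p and miR-34c-5p lie at chr8:60306657-60306679 and chr8:60306133-60306155 (minus strand, within Hoatz).
miR-34a-5p: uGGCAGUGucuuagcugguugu
miR-34b-5p: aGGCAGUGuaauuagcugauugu
miR-34c-5p: aGGCAGUGuaguuagcugauugc
The third set is the miR-183 cluster, the neighbouring hairpins with the largest rises, at chr4:59752249-59752273, chr4:59755901-59755923 and chr4:59756106-59756127 on the minus strand, outside annotated genes. Their seeds differ from each other.
miR-182: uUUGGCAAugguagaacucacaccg
miR-96-5p: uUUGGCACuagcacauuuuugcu
miR-183-5p: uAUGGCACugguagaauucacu
Next come pairs with a shared seed in which only the second member was called, namely miR-208a-3p and miR-208b-3p, in the myosin genes Myh6 (chr15:32395568-32395585) and Myh7 (chr15:32421648-32421665), both on the minus strand, and miR-190a-5p and miR-190b-5p at chr8:76732228-76732249 (minus strand, within Tln2) and chr2:177812471-177812491 (plus strand).
miR-208a-3p: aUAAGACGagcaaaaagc
miR-208b-3p: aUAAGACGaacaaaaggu
miR-190a-5p: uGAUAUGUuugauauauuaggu
miR-190b-5p: uGAUAUGUuugauauuagguu
Last are 3 miRNAs that stand for lower groups: miR-127-3p of Dlk1-Dio3, an imprinted region (chr6:134328510-134328531, plus strand, at Rtl1), miR-351-5p of the X-linked miR-322 cluster (chrX:137725157-137725181, minus strand) and miR-490-5p, within the muscarinic receptor gene Chrm2 (chr4:66014607-66014626, plus strand).
miR-127-3p: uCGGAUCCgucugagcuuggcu
miR-351-5p: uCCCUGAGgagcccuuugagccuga
miR-490-5p: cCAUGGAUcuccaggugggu

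Against WKY, QDG hearts had more miR-182, miR-34a-5p, miR-208b-3p and miR-1-3p, and less miR-598-3p, miR-34b-5p, miR-127-3p and let-7a-5p. In all, 73 of 410 miRNAs (17.8%) passed limma's test at a Benjamini-Hochberg adjusted p of 0.05, which is what "called", "rose" and "fell" mean here. Of them 30 rose (7.32% of those tested) and 43 fell (10.5%). Only 8 (1.95%) were both called and at least 2-fold apart on the scale of RPM + 1: miR-182, miR-96-5p, miR-184, miR-293-5p, miR-190b-5p, miR-183-5p and miR-135a-5p were higher, and miR-598-3p was lower. For 33 miRNAs (8.05%), called or not, the 6 QDG values lay wholly outside the 6 WKY values. The median log2 difference over all 410 was -0.06, with 170 miRNAs above 0 and 240 below. The balance of calls moved with the scaling of libraries, from 30 higher and 43 lower on the deposited values to 42 and 41 with TMM, 42 and 40 with RLE and 55 and 28 with upper quartile scaling. On reads, edgeR gave 41 and 42, DESeq2 46 and 41, and limma-voom 40 and 45.

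**Figure D1:**
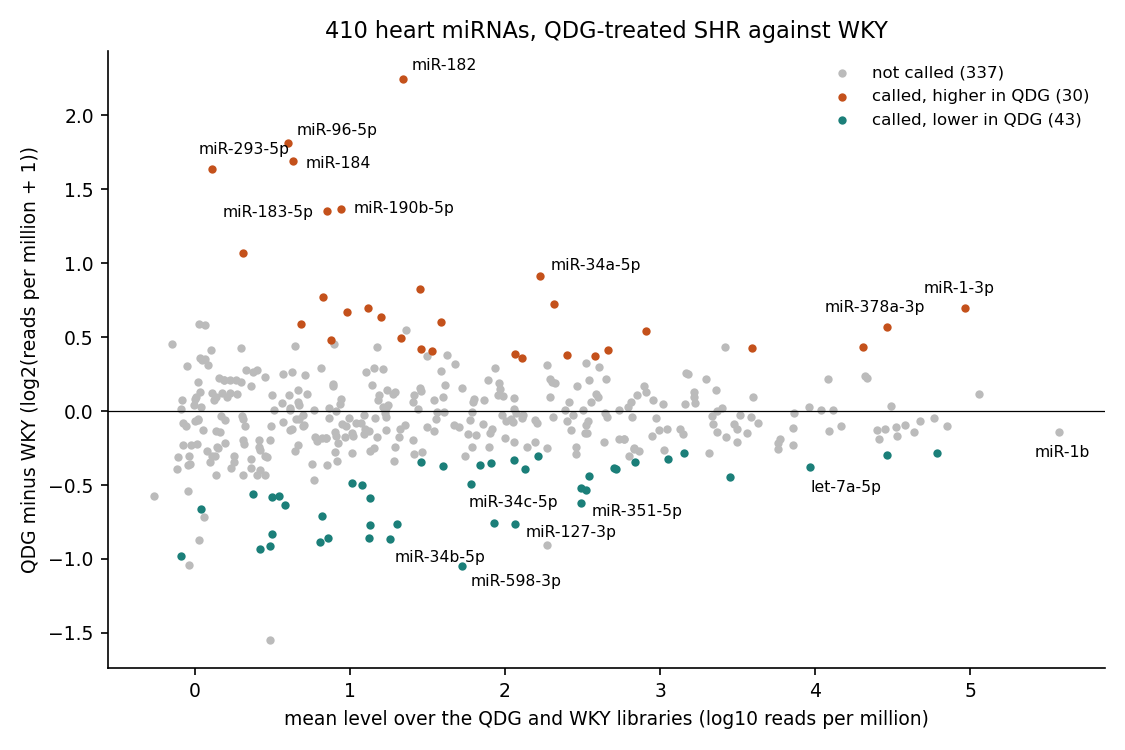
Log2 difference of QDG from WKY (vertical axis, on RPM + 1) against the mean level over the 12 libraries (horizontal axis, log10 RPM) for 410 miRNAs, with the 30 higher calls in orange, the 43 lower calls in green and the others in grey. The largest differences, such as miR-182 at 2.24, belong to scarce miRNAs, while abundant callers such as miR-1-3p (0.70) stay under 1.

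Calls were spread over the range of abundance. Among 66 miRNAs with a mean of at least 1000 RPM, 4 rose and 6 fell, and the median size of those log2 differences was 0.41. Between 10 and 1000 RPM, 16 of 182 rose and 25 fell, with a median size of 0.49. Under 10 RPM, 10 of 162 rose and 12 fell, with a median size of 0.85. These sizes cover called miRNAs only, and a wider spread between libraries demands a larger difference for a call. They do not describe all tested miRNAs of a class. In absolute terms, among called miRNAs, the mean of miR-1-3p was 43551 RPM higher in QDG, that of miR-378a-3p 11371 RPM higher and that of miR-21-5p 6081 RPM higher, whereas that of miR-99a-5p differed by -12004 RPM. Of the miRNAs not called, miR-1b, the relative of miR-1-3p, differed most in its mean, by -38397 RPM. That difference rests in part on WKY1, which read 477644 RPM against 362399 to 385672 RPM in the other WKY libraries.

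Of the muscle miRNAs, miR-1-3p and miR-208b-3p rose and their close relatives miR-1b and miR-208a-3p were not called. Below, the 3 figures for a group are the lowest, the median and the highest of its 6 libraries, and log2 differences are QDG minus WKY ± SE. miR-1-3p read 62279, 70001 and 85643 RPM in WKY and 103029, 114051 and 122791 RPM in QDG. The groups did not overlap, and the log2 difference was 0.70 ± 0.08 (adjusted p = 9.46e-08), or 1.62-fold. miR-1b, which is the more abundant of the pair, read 362399, 383531 and 477644 RPM in WKY and 331023, 359939 and 376456 RPM in QDG. Those ranges overlapped and the miRNA was not called (-0.14 ± 0.07, adjusted p = 0.144), with WKY1 standing above the other WKY libraries. Of the reads assigned to either member, miR-1-3p took 13.996, 15.3 and 16.2% in WKY and 22.5, 24.4 and 25.4% in QDG. That share does not depend on library scaling, was higher in every QDG library than in any WKY library, and had an exact permutation p = 0.00216 (two-sided, the smallest that 6 against 6 allows; 0.0325 after adjustment over 15 such values). The treatment of reads fitting both entries was not given in the sources used here, so the level of each is uncertain. The summed seed family of miR-1-3p, miR-1b and miR-206-3p had 0.02 ± 0.07 (adjusted p = 0.868).

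miR-208b-3p, which comes from the gene for slow myosin, Myh7, was the other muscle riser. It read 112, 146 and 219.8 RPM in WKY and 192, 260.5 and 300.0 RPM in QDG, a log2 difference of 0.72 ± 0.16 (adjusted p = 0.00136). The groups overlapped through the WKY library with the most, and 5 of 6 QDG libraries lay above every WKY library. Its counterpart from Myh6, miR-208a-3p, read 1395, 2241 and 2715 RPM in WKY and 1681, 2188 and 2317 RPM in QDG and was not called (-0.03, adjusted p = 0.876). Of the 12 heart muscle miRNAs tested, 2 rose and 0 fell, or 16.7% called beside 17.8% over all 410. Their median was -0.08 against -0.06 over all 410. miR-133a-3p at -0.07, miR-133b-3p at -0.21, miR-499-5p at -0.13 and miR-206-3p, the skeletal muscle form, at -0.30 had adjusted p from 0.112 to 0.744. Here and in later groups, fewer cells of a type and less RNA per cell cannot be told apart in bulk tissue.

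The miR-34 family held calls in both directions. miR-34a-5p, a direct target of p53 known from ageing and injured hearts, read 94.6, 115 and 137 RPM in WKY and 204, 218 and 239 RPM in QDG. No QDG library came near the WKY range, and the difference was 0.91 ± 0.10 (adjusted p = 4.65e-08), or 1.88-fold. miR-34c-5p read 89.9, 101 and 128 RPM in WKY and 48.5, 63.4 and 71.8 RPM in QDG, also without overlap, but in the other direction at -0.76 ± 0.13 (adjusted p = 0.000147). miR-34b-5p read 15.2, 25.4 and 31.8 RPM in WKY and 9.35, 12.3 and 17.4 RPM in QDG (-0.87 ± 0.18, adjusted p = 0.000682). Both of these come from the hairpin pair at chr8:60306101-60306679, where 4 of 4 tested arms fell. The 3p arms there were scarce: miR-34b-3p had -0.58 ± 0.16 (adjusted p = 0.00843) and miR-34c-3p -0.66 ± 0.23 (adjusted p = 0.0414), the latter with medians of 1.48 RPM in WKY and 0.386 RPM in QDG. miR-449a-5p, of the same seed, was not called (0.17, adjusted p = 0.612). Summed over miR-34a-5p, miR-34b-5p, miR-34c-5p and miR-449a-5p, the seed read 219, 254 and 287 RPM in WKY and 269, 297 and 323 RPM in QDG, which overlapped and was not called (0.25 ± 0.09, adjusted p = 0.0652). Of 43 seed families with at least 2 tested members, this was the 1 family that held calls in both directions.

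The miR-183 cluster, best known from sensory cells of the eye and ear and made as 1 transcript, rose as a whole (3 of 3 members; chr4:59752249-59756127). miR-182 read 5.82, 6.66 and 7.59 RPM in WKY and 15.9, 40.8 and 48.4 RPM in QDG. Every QDG library was above every WKY library. The difference of 2.24 ± 0.18 (adjusted p = 3.79e-10) was the largest of all called miRNAs on the scale of log2(RPM + 1), at 4.74-fold on RPM + 1. Read ratios, given below for scarcer miRNAs, leave out the added 1 and are another measure, on which miR-293-5p was higher. miR-183-5p read 2.38, 3.93 and 4.27 RPM in WKY and 7.02, 10.6 and 13.4 RPM in QDG, and miR-96-5p 0.828, 1.05 and 1.95 and 4.33, 6.82 and 8.69 RPM. Neither overlapped between groups, with differences of 1.35 ± 0.17 (adjusted p = 5.46e-07) and 1.81 ± 0.18 (adjusted p = 1.32e-08). Scarcer miRNAs also moved by over 2-fold, all named after their values were seen. miR-190b-5p read 3.30, 3.89 and 8.28 RPM in WKY and 9.91, 13.04 and 15.3 RPM in QDG without overlap (1.37 ± 0.16, adjusted p = 1.62e-07), the highest WKY value being that of WKY4 alone, while its seed partner miR-190a-5p was not called (-0.09, adjusted p = 0.673). miR-293-5p, of the embryonic miR-290 cluster, had 3 reads in all WKY libraries together and 82 in QDG, a depth-scaled ratio of 26.7 (95% interval 8.83 to 132). For miR-184 the reads were 45 and 233, a ratio of 5.06 (3.67 to 7.13), and for miR-135a-5p 32 and 103, a ratio of 3.15 (2.10 to 4.84). These intervals cover counting error only and leave out the spread between libraries, where miR-184 ran from 18 to 65 reads in QDG. They also treat reads as independent molecules, which reads without molecular identifiers are not.

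Among the other risers were miRNAs known from growth and scarring of the heart. miR-378a-3p lies in the gene Ppargc1b, a regulator of mitochondrial metabolism, and read 19801, 23267 and 28419 RPM in WKY and 29959, 34717 and 41219.7 RPM in QDG. The groups were separate and the difference was 0.57 ± 0.09 (adjusted p = 3.11e-05). The 3 tested entries of that family all rose, miR-378b by 0.43 and miR-378a-5p by 0.41. miR-21-5p, a miRNA of fibroblasts that is raised in scarring hearts, read 16129, 17252 and 18611 RPM in WKY and 20148, 23379.6 and 25518 RPM in QDG, again without overlap (0.43 ± 0.11, adjusted p = 0.00436). miR-132-5p and miR-132-3p, whose gene responds to the factor CREB and which promote muscle cell growth, rose by 0.70 ± 0.17 (adjusted p = 0.0039) and 0.67 ± 0.19 (adjusted p = 0.01). miR-132-3p read 4.88, 7.70 and 8.70 RPM in WKY and 9.91, 12.5 and 12.9 RPM in QDG, with no overlap, but without both WKY1 and QDG4 its adjusted p was 0.0593. Their neighbours miR-212-3p and miR-212-5p, at 0.45 and 0.44, were not called (adjusted p = 0.224 and 0.127), and the median of the 4 was 0.56.

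Other members of the 12 largest rises were more loosely tied to the heart. miR-452-5p read 14.7, 17.7 and 27.8 RPM in WKY and 24.1, 34.7 and 49.4 RPM in QDG (0.82 ± 0.16, adjusted p = 0.000516), and its 3p arm rose too (0.77). miR-708-5p read 11.2, 12.5 and 12.8 RPM in WKY and 16.5, 18.8 and 23.9 RPM in QDG, without overlap (0.64 ± 0.12, adjusted p = 0.00035). miR-331-3p read 21.2, 31.6 and 36.2 RPM in WKY and 43.3, 46.4 and 50.4 RPM in QDG, also without overlap (0.60 ± 0.12, adjusted p = 0.000492). miR-708 lies within Tenm4 and miR-331 within Vezt. miR-146b-5p read 533, 614 and 828 RPM in WKY and 635, 1001 and 1158 RPM in QDG, which overlapped in 1 QDG library (0.54 ± 0.14, adjusted p = 0.00843). It is induced by NF-kB and dampens inflammatory signalling. miR-338-5p, within Aatk, had 0.49 ± 0.14 (adjusted p = 0.0132), a call that ended without WKY6 (adjusted p = 0.051).

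**Figure D2:**
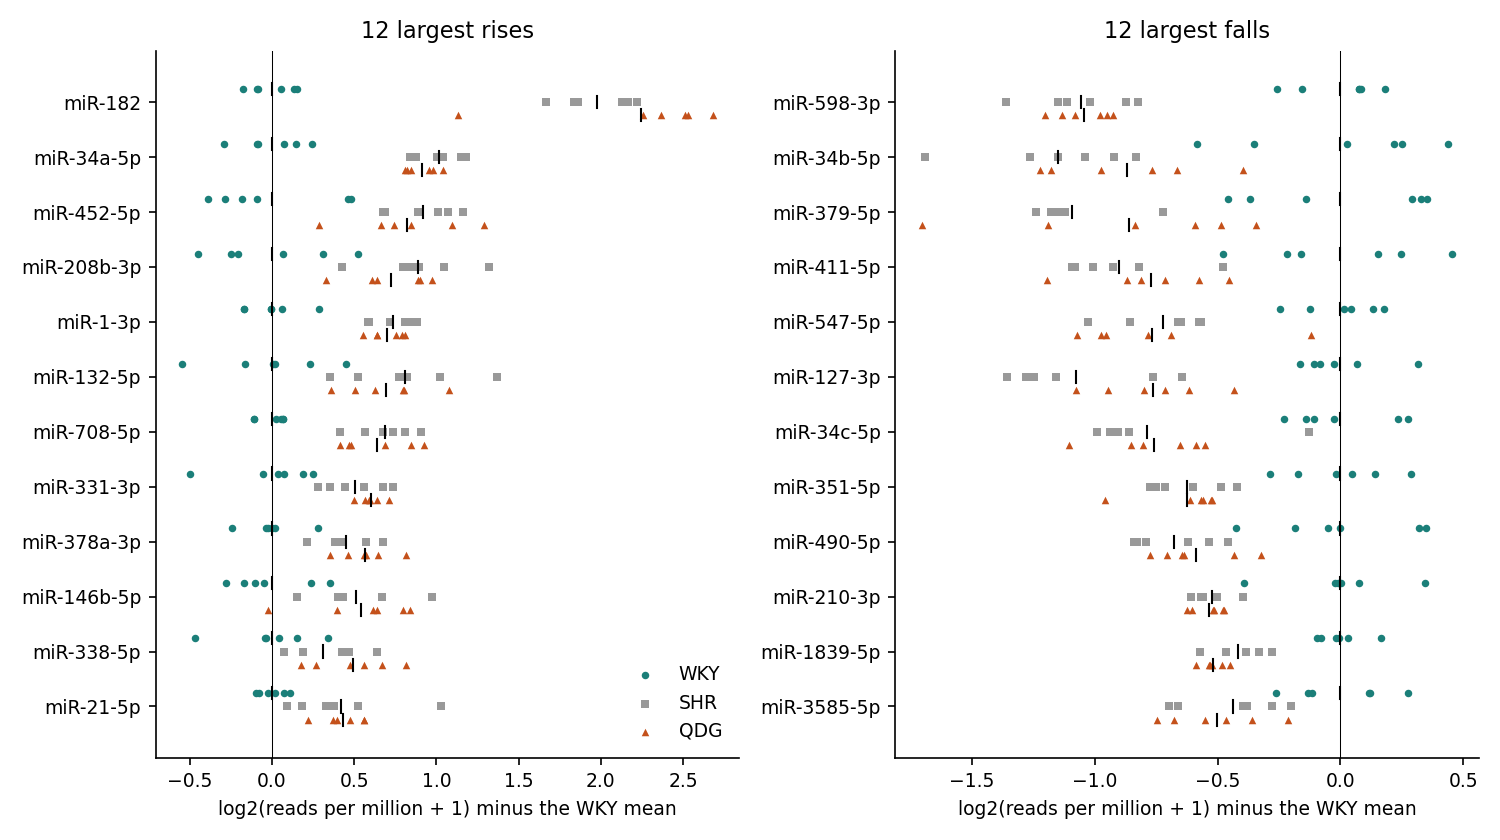
Values of single libraries for the 12 largest rises (left) and 12 largest falls (right) among called miRNAs of at least 10 RPM, as log2(RPM + 1) minus the WKY mean, with WKY as circles, SHR as squares and QDG as triangles, and short black lines for group means. QDG values sit to the right of the WKY values for miR-34a-5p and to the left for miR-598-3p. The SHR values of both lie on the same side of WKY as the QDG values, in part beyond the QDG range.

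The largest fall among miRNAs of at least 10 RPM was that of miR-598-3p, which read 59.5, 75.3 and 81.2 RPM in WKY and 30.5, 34.5 and 37.1 RPM in QDG. The groups lay far apart, at -1.04 ± 0.11 (adjusted p = 4.65e-08) or 2.06-fold lower. miR-210-3p, the miRNA most widely used as a sign of low oxygen through the factor HIF, read 296, 389 and 495 RPM in WKY and 252, 272 and 279.8 RPM in QDG. All QDG libraries were below all WKY libraries (-0.54 ± 0.10, adjusted p = 0.000165), while its 5p arm was not called (-0.39, adjusted p = 0.146). miR-1839-5p read 340.2, 361 and 408 RPM in WKY and 242, 252 and 266 RPM in QDG, also without overlap (-0.52 ± 0.08, adjusted p = 3.15e-05), and miR-1839-3p had -0.48 ± 0.13 (adjusted p = 0.00922). Scarcer miRNAs that fell included miR-129-5p, abundant in brain (-0.86 ± 0.17, adjusted p = 0.000516, no overlap), and miR-483-3p, from within the growth factor gene Igf2 (-0.93 ± 0.21, adjusted p = 0.00133). The arms of miR-298, from the imprinted Gnas region, had -0.89 ± 0.19 (adjusted p = 0.000937) and -0.83 ± 0.19 (adjusted p = 0.00144). miR-202-5p was down to 7 reads over all QDG libraries against 44 in WKY, a ratio of 0.155 (0.0591 to 0.348, counting error only), and 48 of its 72 SHR reads came from a single library.

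Dlk1-Dio3 miRNAs, a large imprinted group on chromosome 6 expressed from the maternal allele, fell or were not called. Of 33 tested, 8 fell (24.2%, beside 10.5% over all 410 miRNAs) and 0 rose. Below 0 lay 29 of the 33, beside 240 of the 410, and the median was -0.25 against -0.06 over all miRNAs. miR-127-3p, which lies antisense to the retrotransposon-derived gene Rtl1, read 129.9, 140.3 and 182 RPM in WKY and 68.7, 85.9 and 108 RPM in QDG, without overlap (-0.76 ± 0.13, adjusted p = 7.36e-05). In the distal stretch (chr6:134543460-134579527), 6 of 22 fell, among them miR-379-5p. miR-379-5p read 11.9, 17.9 and 21.7 RPM in WKY and 4.45, 9.86 and 13.002 RPM in QDG (-0.86 ± 0.19, adjusted p = 0.00154). miR-411-5p read 11.8, 16.9 and 23.4 RPM in WKY and 6.78, 9.50 and 11.9999 RPM in QDG (-0.77 ± 0.16, adjusted p = 0.000748), and both pairs of ranges overlapped. miR-494-3p (-0.91 ± 0.19, adjusted p = 0.000748), miR-541-5p (-0.71 ± 0.18, adjusted p = 0.00436), miR-382-3p (-0.63 ± 0.18, adjusted p = 0.0132) and miR-369-3p (-0.58 ± 0.20, adjusted p = 0.0434) were scarcer. In the proximal stretch (chr6:134314744-134331404), 2 of 8 fell, miR-127-3p and miR-337-5p (-0.56 ± 0.19, adjusted p = 0.0422). With the replicate block 6 of the 33 fell, and miR-337-5p and miR-369-3p had adjusted p = 0.0594 and 0.0706. By edgeR and by DESeq2 6 fell as well, without those same miRNAs (adjusted p = 0.063 to 0.0948). Without WKY1 and QDG4 the group had 5 falls, with miR-382-3p, miR-369-3p and miR-337-5p no longer called. Over the 4 other scalings 6 to 8 fell, and the median ran from -0.24 to -0.18.

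On the X chromosome, 9 of 61 tested miRNAs fell (14.8%, beside 10.5% over all 410) and 0 rose, and 8 of the 9 belong to 2 clusters. Other X-linked clusters with 0 calls were miR-221 with miR-222 at a median of 0.29, miR-20b with miR-363 at 0.13 and miR-188 with miR-532 at -0.02. The cluster of miR-374 with miR-421 also had 0 calls, at a median of -0.19. That of let-7f-2-3p with miR-98 had a median of -0.06 and 1 fall, let-7f-2-3p. In the miR-322 cluster (chrX:137720952-137726219), whose members miR-322 and miR-503 restrain cell division, 4 of 11 tested arms fell, or 2 to 6 with a single library left out, 5 without WKY1 and QDG4 and 2 with upper quartile scaling. miR-351-5p read 306, 377 and 456 RPM in WKY and 192, 252 and 259 RPM in QDG, with no overlap, at -0.62 ± 0.11 (adjusted p = 7.36e-05). miR-322-3p read 376, 388 and 470.2 RPM in WKY and 282, 297 and 316 RPM in QDG, also separate (-0.44 ± 0.08, adjusted p = 0.00035). miR-450a-5p (-0.28 ± 0.10, adjusted p = 0.0458) and miR-503-5p (-0.36 ± 0.12, adjusted p = 0.0419) were near the threshold. miR-351-5p shares its seed with the far more abundant miR-125a-5p and miR-125b-5p, and the sum of the 3 had -0.16 ± 0.08 (adjusted p = 0.208). A second X-linked group (chrX:151706741-151712151) had 4 of 5 arms lower, also with any single library left out. miR-547-5p read 21.1, 25.8 and 28.7 RPM in WKY and 11.5, 13.4 and 23.1 RPM in QDG (-0.77 ± 0.14, adjusted p = 0.00027), where QDG2 alone reached into the WKY range. miR-547-3p (-0.39 ± 0.11, adjusted p = 0.0111), miR-201-5p (-0.49 ± 0.14, adjusted p = 0.0112) and miR-3585-5p (-0.50 ± 0.14, adjusted p = 0.00843) fell as well. For comparison, 9 of 44 tested miRNAs on chromosome 6 fell (20.5%, most of them Dlk1-Dio3 members) and 0 rose. On chromosome 8, 4 of 18 fell (22.2%) and 1 rose, and on chromosome 1, 6 of 28 fell (21.4%) and 6 rose. Shares higher included 5 of 37 on chromosome 10 (13.5%, with 0 lower) and 4 of 12 on chromosome 4 (33.3%, with 1 lower). Over all 410, 7.32% rose.

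The let-7 family, which is tied to differentiation and abundant in adult tissue, had 5 of 21 members lower and 0 higher. The share lower was 23.8%, beside 10.5% over all 410 miRNAs. Below 0 lay 19 of the 21, beside 240 of the 410, and the median was -0.17. let-7a-5p read 10136, 10415 and 11049 RPM in WKY and 7260.1, 8211 and 8408 RPM in QDG, with no overlap (-0.38 ± 0.07, adjusted p = 0.000134). let-7d-5p read 2797, 3305 and 3460.2 RPM in WKY and 1888, 2431 and 2659 RPM in QDG, again separate (-0.45 ± 0.09, adjusted p = 0.000402). let-7e-5p (-0.35 ± 0.08, adjusted p = 0.00262) and let-7f-5p (-0.30 ± 0.06, adjusted p = 0.00129) were separate as well, and let-7f-2-3p had -0.37 ± 0.12 (adjusted p = 0.0306). The 9 tested members with the let-7 seed summed to 110668, 122942 and 134485 RPM in WKY and 96139.8, 107609.6 and 113709.7 RPM in QDG, and the sum fell by 0.21 ± 0.07 (adjusted p = 0.0256) on the log2 scale. Most of these sequences differ from another member by 1 or 2 bases, so the assignment of shared reads, for which no rule was found in the sources, touches single members more than the sum. Over the 4 other scalings, 3 to 5 members fell, and the median ran from -0.17 to -0.06.

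Lists known for scarring and growth are read against the 17.8% called over all 410 miRNAs. Their members were matched by hairpin name, so both arms can enter, including less abundant ones such as miR-30c-1-3p and miR-125b-2-3p. Whether the reports behind a list cover those arms was not checked. Of the 6 tested miR-29 members, whose targets include collagen messages, 1 fell (median -0.23): miR-29b-3p read 436, 579 and 666 RPM in WKY and 335, 445 and 507 RPM in QDG, with overlap (-0.39 ± 0.11, adjusted p = 0.0102). miR-29a-3p, the main member by level, had -0.10 ± 0.10 (adjusted p = 0.525), and miR-29c-3p had -0.25 (adjusted p = 0.155, or 0.0379 without WKY1). miR-29a-5p was at 0.29 (adjusted p = 0.0977), passing with TMM, RLE and upper quartile scaling (adjusted p = 0.00878 to 0.0264), without WKY2 (0.0466) and on reads with edgeR (0.0324), DESeq2 (0.0302) and limma-voom (0.028). Of 11 miR-30 members, which heart muscle holds in quantity, 1 fell, miR-30c-1-3p (-0.35 ± 0.11, adjusted p = 0.0218). All 11 lay below 0 (median -0.14), beside 240 of the 410. The miR-30 median ran from -0.14 to -0.04 with the 4 other scalings, where 0 to 2 members fell. In a list of miRNAs reported to promote hypertrophy, 5 of 27 rose and 0 fell (18.5% called), with a median of 0.14. They were miR-21-5p, miR-155-5p, miR-208b-3p and both arms of miR-132, and 3 members were called without WKY1 and QDG4. With the 4 other scalings 6 to 10 of these 27 rose (median 0.14 to 0.25), so the count rests on the scaling. Of 25 reported to restrain hypertrophy, 3 rose (miR-1-3p, miR-378a-3p, miR-378a-5p) and 2 fell (miR-541-5p, miR-99a-5p), or 20% called, with a median of -0.10. Of 8 reported to promote fibrosis, 3 rose (miR-34a-5p, miR-21-5p, miR-155-5p) and miR-125b-2-3p fell, 50% of a short list. With 1 library left out, 2 to 3 of the 8 rose and 0 to 1 fell, and without WKY1 and QDG4 2 rose and 1 fell. Among 21 reported to restrain fibrosis, 2 fell (miR-29b-3p, miR-30c-1-3p) and 0 rose (9.52% called), but up to 3 rose with another scaling. These lists share members with the families above and were drawn up with earlier results of these data known.

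Among markers of other cell types, 4 of 13 leukocyte miRNAs rose (30.8%, beside 7.32% over all 410) and 0 fell, with a median of 0.01. They were miR-146b-5p, miR-146b-3p, miR-142-3p of blood cells and miR-155-5p of activated immune cells, at 0.54, 0.58, 0.38 and 0.41. Without both WKY1 and QDG4, 0 rose and 1 fell, and these 4 had adjusted p from 0.0564 to 0.0893. The summed leukocyte list ran from 7121 to 10206 RPM in WKY and from 5833 to 9012 RPM in QDG, and its part in these calls was not tested. Of 7 endothelial miRNAs 14.3% were called, beside 17.8% over all 410. In that list miR-130a-3p rose (0.36 ± 0.10, adjusted p = 0.0145), while the very abundant miR-126a-3p was not called (0.12, adjusted p = 0.29, or 0.0292 with upper quartile scaling). Of 16 neuronal miRNAs (12.5% called), miR-218a-5p rose (0.38 ± 0.10, adjusted p = 0.00528) and miR-129-5p fell. With other scalings 2 to 3 endothelial and 1 to 4 neuronal entries rose. The remaining lists, set apart here because none of their 53 entries passed in limma, were those for smooth muscle (4), stroma (3), red blood cells (3), epithelium (9), liver (3), miR-15 and miR-16 (8), miR-17-92 (20) and miR-221 and miR-222 (3). Of these entries 5 had an unadjusted p under 0.05, and edgeR called 2, DESeq2 3 and limma-voom 1. With other scalings, 1 miR-221 and miR-222 entry rose under all 4, 1 epithelial entry under 3, and 1 miR-15 and miR-16 entry with upper quartile scaling, while for miR-17-92 1 entry rose with upper quartile scaling and 1 fell with scaling that leaves out the 10 most abundant.

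**Figure D3:**
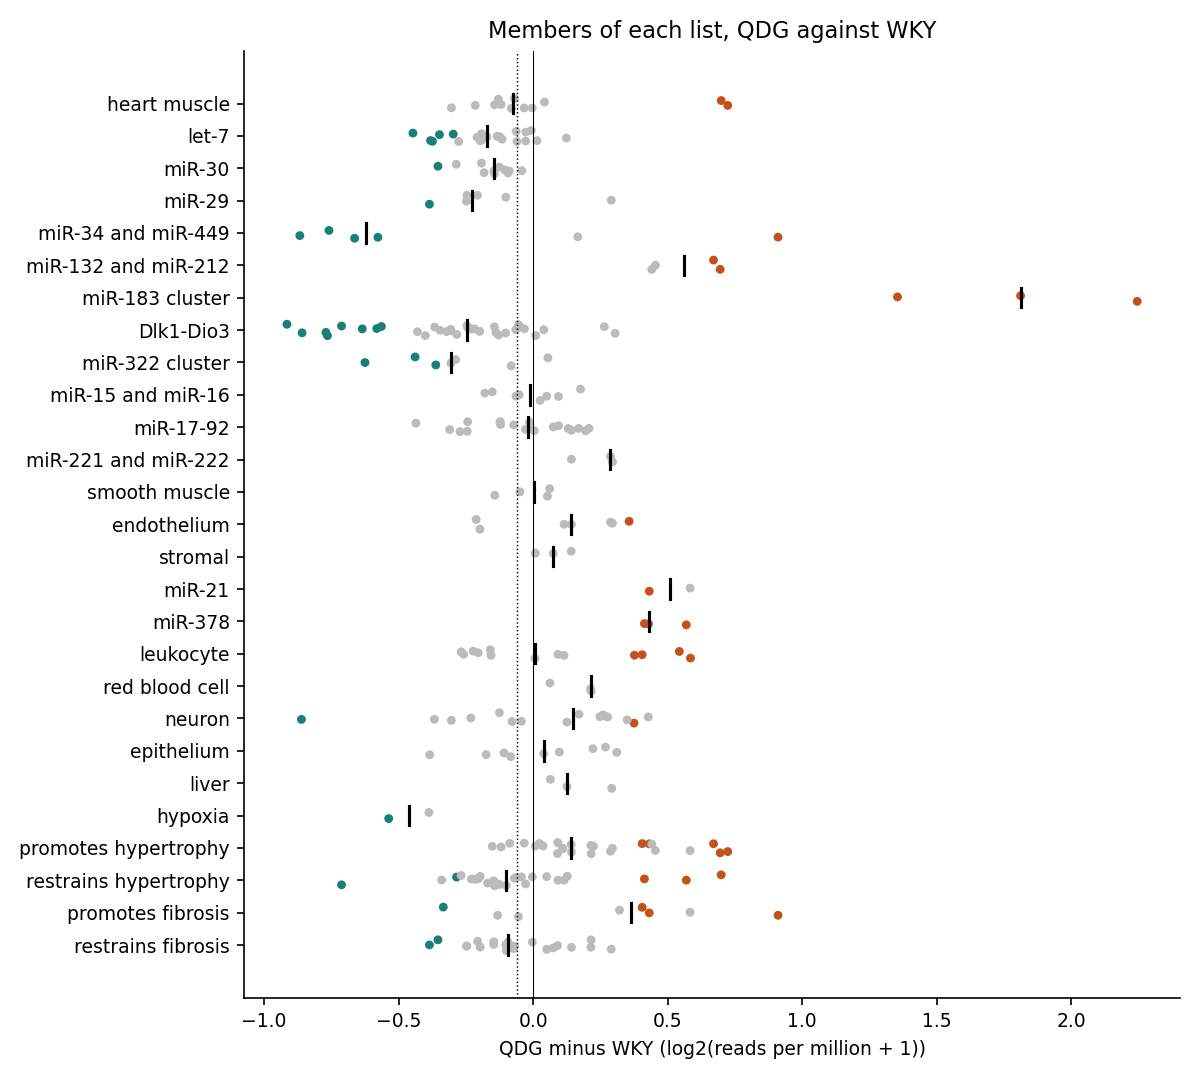
Log2 difference of QDG from WKY for each tested member of 27 lists (1 point per miRNA, orange for higher calls, green for lower calls, grey for the rest), with a black bar at the list's median, a solid line at 0 and a dotted line at the median of all 410 miRNAs (-0.06). The miR-183, miR-378 and miR-132 lists sit to the right, Dlk1-Dio3 and let-7 mostly to the left, and the miR-34 list spans both sides.

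A set of calls lay close to the threshold: 17 of the 73, or 5 of the 30 higher and 12 of the 43 lower, no longer passed when 1 or another WKY or QDG library was left out. For most of them any of several libraries had this effect, with a log2 difference that stayed near the first value. Of the 5 higher ones, miR-338-5p is given above and miR-142-3p and miR-155-5p belong to the leukocyte list. miR-142-3p at 0.38 still passed without WKY2, WKY5, WKY6, QDG2 or QDG4, but without any other single library it did not (0.23 to 0.39, adjusted p = 0.0543 to 0.0899). miR-155-5p at 0.41 still passed without WKY4, WKY5, QDG2 or QDG4, but without any other single library it did not (0.33 to 0.42, adjusted p = 0.0543 to 0.12). miR-708-3p, the minor arm of its hairpin, at 0.48 was not called without WKY5, QDG1 or QDG4 (0.36 to 0.45, adjusted p = 0.0507 to 0.0807). miR-204-5p, known from the eye and from kidney, was the remaining higher one. miR-204-5p at 0.42 still passed without WKY2, WKY5, QDG1, QDG2 or QDG3, but without any other single library it did not (0.33 to 0.43, adjusted p = 0.0523 to 0.122). Of the lower ones, 5 came from the genomic groups described above. miR-34c-3p at -0.66 still passed without WKY2, WKY5, QDG4 or QDG6, but without any other single library it did not (-0.58 to -0.69, adjusted p = 0.0505 to 0.0887). miR-503-5p at -0.36 still passed without WKY1, QDG3 or QDG5, but without any other single library it did not (-0.28 to -0.38, adjusted p = 0.0521 to 0.122). miR-450a-5p at -0.28 still passed without WKY6, QDG3 or QDG5, but without any other single library it did not (-0.21 to -0.30, adjusted p = 0.0501 to 0.128). In Dlk1-Dio3 these were a proximal and a distal member. miR-337-5p at -0.56 still passed without WKY4, QDG1, QDG5 or QDG6, but without any other single library it did not (-0.46 to -0.57, adjusted p = 0.0624 to 0.109). miR-369-3p at -0.58 still passed without WKY3, WKY6, QDG2 or QDG6, but without any other single library it did not (-0.46 to -0.60, adjusted p = 0.0523 to 0.128). Another 4 were the less abundant arms of their hairpins. miR-30c-1-3p at -0.35 was not called without WKY4, WKY5 or QDG2 (-0.28 to -0.32, adjusted p = 0.0582 to 0.0777). miR-181a-2-3p at -0.34 was not called without WKY2, WKY3, QDG5 or QDG6 (-0.29 to -0.33, adjusted p = 0.0556 to 0.0876). let-7f-2-3p at -0.37 still passed without WKY1, WKY3, WKY4, QDG3 or QDG5, but without any other single library it did not (-0.32 to -0.37, adjusted p = 0.0507 to 0.0807). miR-125b-2-3p, from the hairpin whose other arm is miR-125b-5p, was the fourth. miR-125b-2-3p at -0.33 still passed without WKY1, WKY2, QDG1 or QDG4, but without any other single library it did not (-0.27 to -0.34, adjusted p = 0.0582 to 0.114). The last 3 share no group here. miR-181d-5p at -0.32 was not called without WKY4 (-0.27, adjusted p = 0.052). miR-1843b-5p at -0.30 was not called without WKY6 or QDG3 (-0.27 to -0.28, adjusted p = 0.0545 to 0.0558). miR-202-5p at -0.98 still passed without WKY1 or QDG3, but without any other single library it did not (-0.93 to -1.03, adjusted p = 0.0546 to 0.0909). Without both WKY1 and QDG4, the following of these also had no call: miR-142-3p (adjusted p = 0.0629), miR-155-5p (0.0593), miR-204-5p (0.102), miR-34c-3p (0.0762), miR-450a-5p (0.157), miR-337-5p (0.142), miR-369-3p (0.13), miR-181a-2-3p (0.0601), let-7f-2-3p (0.0708) and miR-202-5p (0.0883). Beyond them that setting ended the calls of miR-132-3p, miR-146b-5p, miR-146b-3p and miR-382-3p (0.0564 to 0.0893). The remaining 56 calls were made whichever of these 12 libraries was left out, and 58 of the 73, all 30 higher and 28 lower ones, under all 4 other scalings. miR-99a-5p, a neighbour of let-7c and among the 10 most abundant miRNAs, read 61869.7, 66823 and 71986 RPM in WKY and 49612, 54768 and 59213 RPM in QDG (-0.28 ± 0.08, adjusted p = 0.0109), a separation that was not called with RLE or upper quartile scaling or with DESeq2 (adjusted p = 0.0543 to 0.169). let-7f-5p and miR-547-3p were not called with upper quartile scaling (adjusted p = 0.107 and 0.0695), and neither were the 12 lower calls that ended on leaving out a library.

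Summing the miRNAs that share a seed gave 300 families, of which 50 (16.7%) were called, 20 higher (6.67%) and 30 lower (10%). Most families hold a single tested miRNA, and of the 43 with at least 2, 3 were called. miR-34b-3p with miR-34c-3p fell (-0.71 ± 0.17, adjusted p = 0.00424), miR-132-3p with miR-212-3p rose (0.70 ± 0.19, adjusted p = 0.00892) and let-7 fell. The miR-132 and miR-212 sum read 5.49, 8.16 and 8.91 RPM in WKY and 10.1, 13.7 and 14.6 RPM in QDG, which did not overlap. In several families, a called member had partners that were more abundant and not called. The sum of miR-208a-3p and miR-208b-3p had 0.03 ± 0.12 (adjusted p = 0.885), that of miR-190a-5p and miR-190b-5p 0.14 ± 0.12 (adjusted p = 0.47), and that of miR-29a-3p, miR-29b-3p and miR-29c-3p -0.11 ± 0.10 (adjusted p = 0.481). For miR-146, miR-146b-5p rose by 0.54 whereas the more abundant miR-146a-5p was at -0.26 (adjusted p = 0.125), and their sum had -0.16 ± 0.11 (adjusted p = 0.379).

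**Figure D4:**
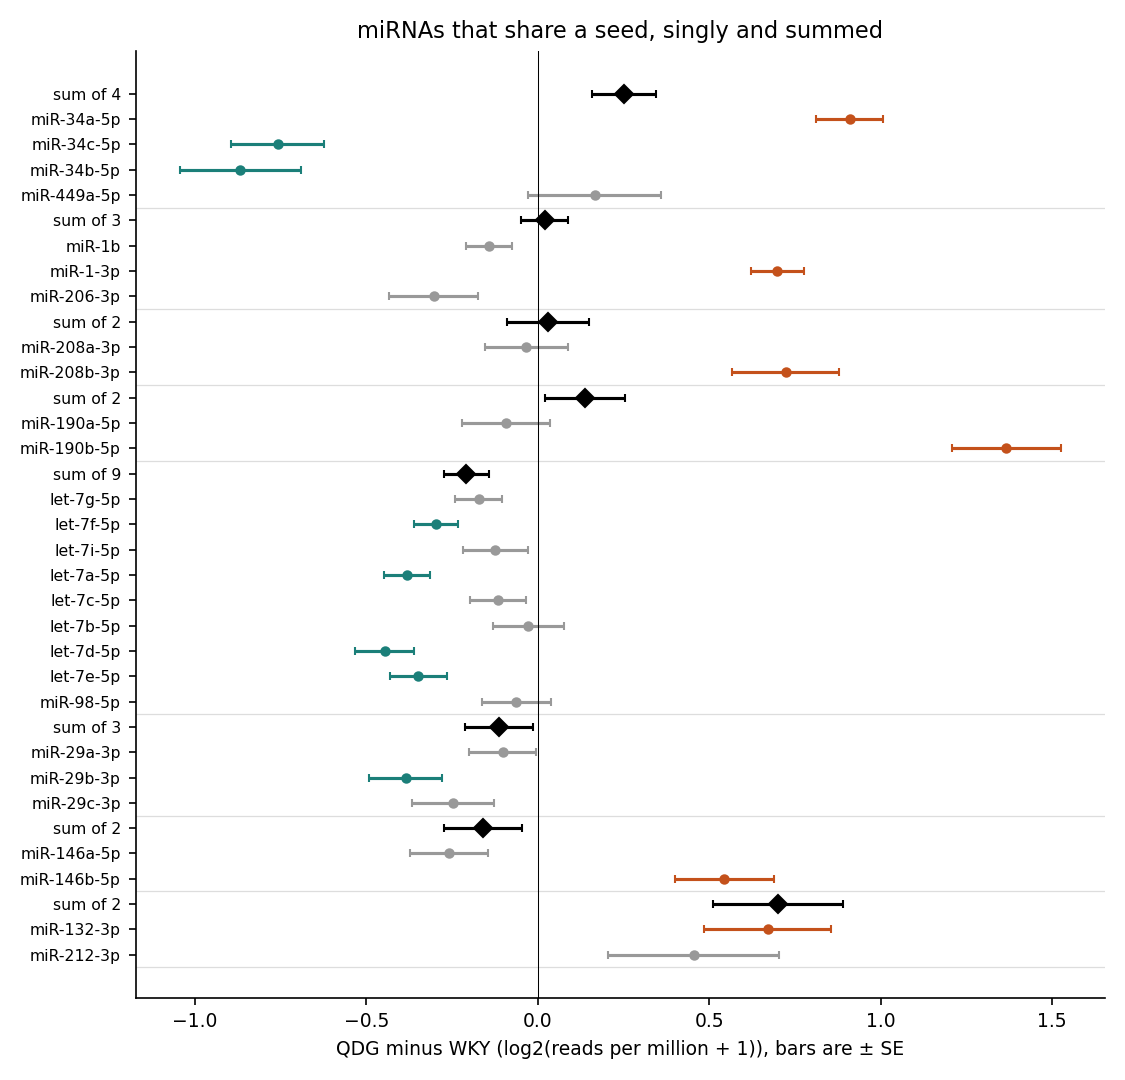
Log2 difference of QDG from WKY (± SE) for members of 8 seed families (circles, orange for higher calls, green for lower calls, grey for the rest) and for the family's summed level (black diamonds). The sums for miR-1, miR-208, miR-190 and miR-34 lie nearer 0 than their called members, while those for let-7 and miR-132 with miR-212 lie with them.

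The balance of the 2 arms of a hairpin, as a ratio of RPM + 1, was tested for 126 hairpins. Library scaling acts on it only through the added 1, which weighs on scarce arms, and the other scalings were not tried. The balance changed for 1 hairpin (0.794%), miR-490, whose host gene Chrm2 encodes the muscarinic receptor of the heart. The log2 ratio of its 5p to its 3p arm was -5.42, -5.30 and -4.90 in WKY and -6.08, -5.94 and -5.53 in QDG, with all QDG values below all WKY values. The change was -0.65 ± 0.12 (adjusted p = 0.00372). miR-490-5p read 11.7, 15.8 and 20.8 RPM in WKY and 9.02, 9.98 and 12.7 RPM in QDG (-0.59 ± 0.14, adjusted p = 0.00291), while miR-490-3p read 536, 638 and 732 and 629, 665 and 696 RPM (0.06, adjusted p = 0.683). At an unadjusted p under 0.05, 14 ratios (11.1%) would count. With a pseudocount of 5 in place of 1, 9 ratios passed, and without WKY6 3 did. Both arms were called for 10 hairpins, 5 higher (miR-132, miR-146b, miR-378a, miR-452, miR-708) and 5 lower (miR-34b, miR-34c, miR-298, miR-547, miR-1839), and 0 had arms called in opposite directions. A single arm was called for 24, and in 22 of them the other arm lay on the same side of 0. The exceptions were miR-490 and miR-130a. Agreement in side was not counted over all 126 hairpins, so these counts have no background share beside them.

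**Figure D5:**
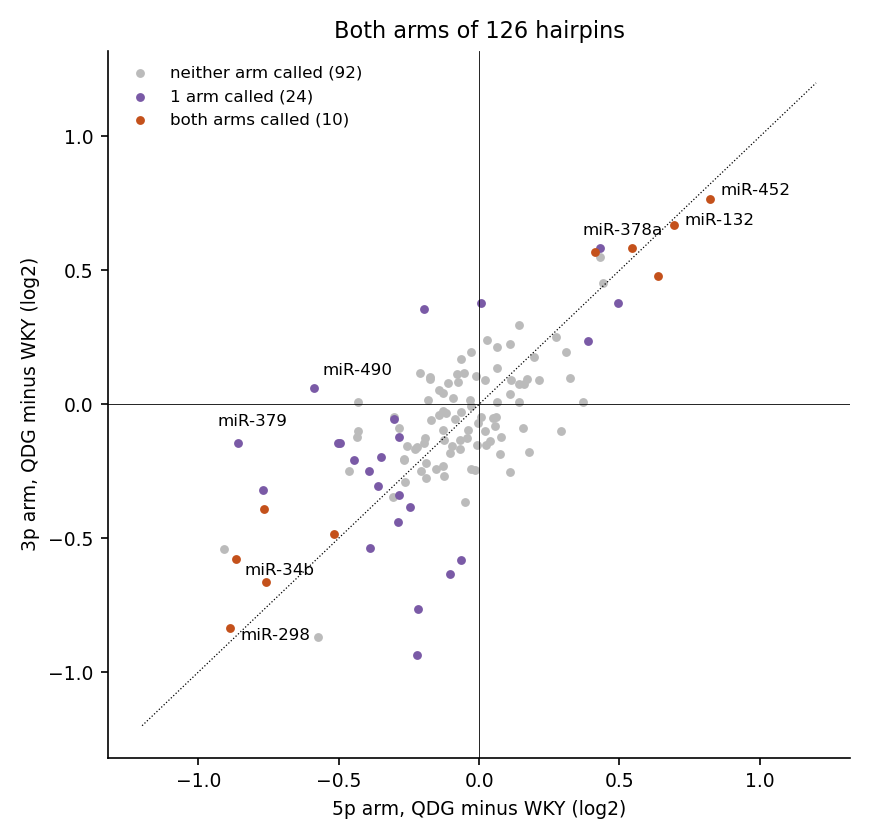
Log2 difference of QDG from WKY for the 3p arm (vertical) against the 5p arm (horizontal) of 126 hairpins, coloured by how many arms were called; the dotted line marks equal differences. In the 10 hairpins with both arms called, the arms lie on the same side of 0 and differ by 0.02 to 0.37, with miR-547 the farthest from the line, while miR-490 lies at -0.59 for 5p and 0.06 for 3p.

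The SHR libraries labelled Hypertension show where these levels lie within the same strain. SHR against WKY uses the same WKY libraries as QDG against WKY, so their values are only set side by side. In SHR, miR-1-3p read 105215, 119176 and 129327 RPM, miR-34a-5p 208, 236 and 264 RPM and miR-182 23.5, 29.8 and 34.8 RPM. The falling miR-598-3p read 27.2, 33.6 and 39.9 RPM, miR-127-3p 56.3, 62.9 and 92.9 RPM and miR-210-3p 255, 268 and 296 RPM. Between QDG and SHR, 0 of 410 miRNAs were called by limma (0%), and 15 (3.66%) had an unadjusted p under 0.05; edgeR, DESeq2 and limma-voom called 0 too, with 18, 20 and 18 at an unadjusted p under 0.05. SHR against WKY gave 95 calls (23.2%). For the 12 largest rises, the log2 difference of QDG from SHR lay between -0.17 and 0.27, with 95% intervals, not adjusted for the number tested, that reached from -0.49 to 0.64. For the 12 largest falls it lay between -0.10 and 0.31, with intervals from -0.34 to 0.65.

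For single miRNAs, QDG minus SHR was -0.04 (95% interval -0.20 to 0.12) for miR-1-3p, -0.11 (95% interval -0.31 to 0.10) for miR-34a-5p and 0.01 (95% interval -0.21 to 0.24) for miR-598-3p. miR-127-3p stood at 0.31 (95% interval 0.05 to 0.57) and miR-183-5p at 0.38 (95% interval 0.03 to 0.72), but both had an adjusted p = 0.983. The smallest p-values in this contrast belonged to 2 Dlk1-Dio3 miRNAs with QDG means near those of WKY. miR-136-3p read 0.899, 1.66 and 2.74 RPM in SHR, 2.54, 3.23 and 4.17 RPM in QDG and 2.24, 3.44 and 3.97 RPM in WKY (QDG minus SHR 0.67, adjusted p = 0.189). miR-376b-3p read 0, 0.292 and 0.982, 0.668, 1.42 and 1.53 and 1.12, 1.31 and 1.98 RPM in the same order (0.73, adjusted p = 0.189). Both were named after their values were seen and neither passed the threshold.

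Fewer miRNAs had any read in QDG, by a margin that did not pass adjustment. Between 498 and 515 of the 599 were seen in WKY libraries (median 505) and between 492 and 506 in QDG libraries (median 496; exact permutation p = 0.0216, two-sided, 0.108 adjusted over 15 values per library). Thinned to 6420666 reads per library, the means were 498 ± 4.71 in WKY and 489.8 ± 4.47 in QDG (SD, n = 6 each; exact permutation p = 0.0152, adjusted 0.108). Without QDG1, which had the most in its group, the first difference was -10.5 and passed (adjusted exact permutation p = 0.0325), and at equal depth it passed without QDG1 (-9.54) or WKY3 (-10.1). The 10 most abundant miRNAs took 65.6 ± 1.28% of miRNA reads in WKY and 65.2 ± 0.416% in QDG (SD, n = 6 each; exact permutation p = 0.591).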

How the data were processed

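Heart libraries, 6 in each of 3 groups and 18 in all, were analysed from the deposited tables of mature miRNAs. Per the labels' protocols, RNA was extracted with Trizol, checked on a Bioanalyzer, and 1 µg entered a small RNA library kit from NEB. Per the submitters' processing notes, FastQC, TopHat2 and limma were used, without roles or versions. The genome build, the miRNA annotation and the rule for reads that fit several miRNAs were not given in the sources used here.

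The authors deposited, per the file headers, a normalized read count per miRNA, a signal on a linear scale. All 10782 of 10782 values were whole multiples of 1 step per library (within 0.01 read), which gives the reads. The authors' divisor is smaller than the miRNA reads of a library, so the values, written RPM here, sum to more than 1000000. Reads summed over miRNAs ran from 6420666 to 10169581 per library, and no pair of libraries of a group agreed within sampling noise (smallest chi-square per degree of freedom 51.4).

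From these values, log2(RPM + 1) of the 410 miRNAs that reached 1 RPM in 6 or more libraries was fitted in limma 3.58.1 (R 4.3.3) with a trended, robust variance over all 18 libraries, and p-values were adjusted by Benjamini-Hochberg over all 410 at a threshold of 0.05. A difference on this scale understates the change of scarce miRNAs. Seed sums (bases 2 to 8) and 5p to 3p ratios were fitted in the same way, each adjusted over its own table. Values with 1 number per library were tested by exact permutation of 6 against 6, adjusted over 15 values (5 measures and 10 marker sums, of which the sums are given as ranges only). Recovered reads were tested with edgeR 4.0.16, DESeq2 1.42.0 and limma-voom.

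Other choices tried were pseudocounts of 0.5 and 5, no filter or a filter of 10 RPM, 4 other scalings, the 2 groups alone, a replicate block and each library left out. Leaving out WKY1 and QDG4 together was chosen after seeing the data. The miRNA lists, the members and the tests were chosen with earlier results of these data known. Named are the 12 largest rises and 12 largest falls among calls with a mean of at least 10 RPM, the 10 most abundant miRNAs, all members of the heart muscle, miR-29, miR-34, miR-132 and miR-183 lists and up to 4 called members of each other list, 73 in all. The 24 other called miRNAs that are named, such as miR-184, miR-293-5p, miR-190b-5p and miR-202-5p, were picked with their values in view.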

Additional observations from a re-analysis of the deposited data

Results flagged for a closer look

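Values of single libraries that stood apart from the other 5 of their group, by a gap over the group's range above Dixon's 95% critical value for 6 samples, numbered 15 in 204 checks, and chance alone flags about 1 in 20. QDG4 held 5 of them. Its miR-143-3p, of smooth muscle, read 70852 RPM against 50582 to 57856 in the other QDG libraries, and its miR-146b-3p 8.18 against 5.22 to 5.99. It was low for miR-29a-3p (10399.6 RPM against 13805 to 15420.2), miR-378a-5p (381 against 530.2 to 579.98) and miR-450a-5p (997 against 1295 to 1395).

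WKY1 held 4. Its miR-1b read 477644 RPM against 362399 to 385672 in the other WKY libraries, its miR-206-3p 994 against 547 to 689, and its let-7d-5p 2797 against 3225 to 3460.2. The 10 most abundant miRNAs took 68.1% of its miRNA reads, against 64.5 to 65.6%.

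QDG2 was low for miR-351-5p (192 RPM against 244 to 259) and high for miR-547-5p (23.1 against 11.5 to 15.3). In QDG5, miR-126a-3p of endothelium read 126667 RPM against 113569.8 to 118342. WKY4 had 8.28 RPM of miR-190b-5p against 3.30 to 4.42, and WKY3 2.14 RPM of miR-494-3p against 4.42 to 5.18. QDG1 had reads for 506 miRNAs against 492 to 497.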

How the results depend on the processing

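No miRNA called in QDG against WKY changed direction under the 26 alternatives, and 49 of the 73 were called under each of them in which they were tested (the filter of 10 RPM leaves some out), whereas the number and balance of calls moved. Calls numbered 74 and 73 with pseudocounts of 0.5 and 5, 71 without a filter, 57 of 252 with a filter of 10 RPM, 68 with the 2 groups alone, 64 to 80 with 1 library left out and 70 without WKY1 and QDG4. The most calls in that range, 80 with 28 higher and 52 lower, came without WKY1. Seed families gave 41 to 51 with 1 library left out and 57 to 64 with other scalings. The median log2 difference over all miRNAs moved from -0.06 to 0.04 with upper quartile scaling. Between QDG and SHR, 0 miRNAs passed under any alternative, against 15 at an unadjusted p under 0.05 in limma.

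Replicate numbers were not used to pair the libraries in the main fit. Correlations of same-numbered QDG and WKY libraries were 0.193, 0.096, 0.109, 0.202, 0.004 and 0.118. Those of same-numbered QDG and SHR libraries ran from -0.127 to 0.120. Differently numbered libraries were not correlated, so these values cannot settle whether the numbers pair libraries. With the replicate block 77 miRNAs were called (30 higher, 47 lower), 71 of them among the 73 (miR-337-5p and miR-369-3p were the others), with 52 seed families and 1 arm ratio. The share of miR-1-3p kept its mean difference of 9.09 percentage points under the block, where the exact permutation test over 6 pairs gave an adjusted p of 0.188, from the smallest unadjusted p that 6 pairs allow.

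Arm ratios were the least settled result, with 9 called at a pseudocount of 5, 4 without a filter, 2 with a filter of 10 RPM and 1 to 3 with 1 library left out (3 without WKY6, 2 without QDG6). The difference in miRNAs with a read ran from -10.5 to -6.77 with 1 library left out and passed at -10.5, without QDG1. At equal depth it ran from -10.1 to -7.17, passing at -9.54 without QDG1 and at -10.1 without WKY3. For miRNAs with at least 5 reads, it was -5.67 (exact permutation, adjusted p = 0.737).

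Some miRNAs passed only under an alternative: miR-206-3p under the replicate block (adjusted p = 0.0344), miR-212-5p with upper quartile scaling (0.0477) and miR-29c-5p without WKY1 and QDG4 (0.0432). Depth limits the scarcest miRNAs, where a handful of reads sets a value.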
